A study of Mus musculus with 15 samples.

Results

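The subject is a set of 2537 autosomal windows of the mouse genome, 1000 bases each, that were more methylated in adult kidney than in newborn kidney. They were chosen from 83919 windows in which at least 3 cytosine positions had at least 10 calls in each of 3 newborn control and 3 adult libraries. A window was taken when its lowest adult library lay above its highest control library and the adult mean was at least 20 percentage points above the control mean, which 3.02% of the covered windows met. The adult and control values therefore made the choice and are given here as a description, with no test. The mirrored rule found 2187 windows that lost methylation.

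The libraries are reduced representation bisulfite sequencing (RRBS), in which an enzyme cut enriches CpG-rich fragments and bisulfite converts unmethylated cytosine. The controls were newborn (P0) C57BL/6 mice carrying Dnmt1 f/f, the knockouts (KO) were P0 mice of Six2Cre Dnmt1 f/f, and the adults were wild type at 6 weeks, with 3 libraries in each group. RNA-seq was made of 3 control and 3 KO samples at P0, and none of adults was analysed here. Six2Cre is driven by the promoter of Six2, so the floxed Dnmt1 is cut in nephron progenitors and their descendants. The adults do not carry the floxed allele, so age and genotype cannot be told apart in the adult comparison. The labels name Six2+ cells as the source while the protocol describes DNA from whole kidneys. In the control RNA the thick limb gene Umod stood at 300 to 432 CPM (read counts scaled to the library total), the proximal tubule gene Slc34a1 at 407 to 1532 and the endothelial gene Pecam1 at 127 to 213, beside 41.4 to 107 for Six2. RNA of several cell types was thus present, and in such tissue a difference within cells cannot be told apart from a difference in which cells are present. Nothing in the labels says that the libraries came from separate animals, so the p-values below measure the spread between these samples, which may be technical.

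DNA methylation in mammals is mostly carried by cytosines of CpG dinucleotides. Dnmt1 copies it to the new strand when a cell divides, whereas Dnmt3a and Dnmt3b add it at unmethylated sites. CpG-dense promoters are usually kept free of it. The nephron forms from Six2-positive progenitors, which are used up around birth in the mouse, after which the tubules lengthen and mature.

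RRBS calls in the windows can be tied to letters of the genome where a window reaches a gene start. Of 69255 measured positions in RefSeq promoters (GRCm38.p6, 250 bases before to 50 after a start), 99.6% lay on a CG. Among 7580 promoters with at least 3 measured positions, 56 touched a gaining window. Of the 56, 45 were themselves at least 20 points higher in adults with no overlap, against 59 of all 7580. The windows they touch were chosen by that rule on the same libraries, which favours the count of 45. The 56 promoters held a median of 9 CG, against 24 over all 7580. The 5 protein-coding genes with the highest promoter gains are shown, since they let the sites be seen in place. Each line holds the 250 bases before the start, 5′ to 3′ on the gene's strand, and capitals mark the CG dinucleotides that were measured.
Mab21l2 upstream: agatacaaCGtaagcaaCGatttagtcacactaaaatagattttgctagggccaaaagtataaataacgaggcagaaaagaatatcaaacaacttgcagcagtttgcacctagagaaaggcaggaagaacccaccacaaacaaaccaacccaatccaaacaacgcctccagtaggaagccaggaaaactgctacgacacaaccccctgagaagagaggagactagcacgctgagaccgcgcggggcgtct
Ece1 upstream: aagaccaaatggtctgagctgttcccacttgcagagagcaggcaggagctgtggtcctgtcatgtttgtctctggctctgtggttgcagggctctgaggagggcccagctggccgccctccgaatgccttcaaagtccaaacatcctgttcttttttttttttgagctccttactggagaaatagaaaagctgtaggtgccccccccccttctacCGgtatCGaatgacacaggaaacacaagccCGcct
Alpk3 upstream: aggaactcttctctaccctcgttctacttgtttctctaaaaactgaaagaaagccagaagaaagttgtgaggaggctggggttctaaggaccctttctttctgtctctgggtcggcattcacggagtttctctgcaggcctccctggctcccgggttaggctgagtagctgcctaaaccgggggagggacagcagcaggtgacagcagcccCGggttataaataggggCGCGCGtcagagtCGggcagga
Tacc2 upstream: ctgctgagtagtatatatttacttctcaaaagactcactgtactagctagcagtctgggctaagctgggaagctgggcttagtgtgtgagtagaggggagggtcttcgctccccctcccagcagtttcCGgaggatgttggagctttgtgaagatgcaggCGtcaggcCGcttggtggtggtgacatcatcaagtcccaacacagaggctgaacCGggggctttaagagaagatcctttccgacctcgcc
Rps6ka1 upstream: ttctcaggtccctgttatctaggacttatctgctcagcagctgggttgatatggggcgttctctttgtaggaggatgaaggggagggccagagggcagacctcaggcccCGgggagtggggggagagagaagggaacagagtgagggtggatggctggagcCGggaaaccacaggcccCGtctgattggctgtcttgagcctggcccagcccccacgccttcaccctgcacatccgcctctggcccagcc
They lie at chr3:86548284-86548533 (minus strand, Mab21l2), chr4:137920543-137920792 (plus, Ece1), chr7:81057350-81057599 (plus, Alpk3), chr7:130692368-130692617 (plus, Tacc2) and chr4:133873036-133873285 (minus, Rps6ka1).

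The promoter of Tacc2, which encodes a centrosome-associated protein, was almost free of methylation at birth. Over its 5 measured positions the controls stood at 1.20%, 1.11% and 0.476%, and the adults at 41.0%, 35.2% and 39.6%, from 166 to 449 calls per library. The gain was uneven: positions 90, 82 and 81 bases before the start stood at 50.7% ± 1.45, 57.6% ± 5.22 and 51.5% ± 4.04 in adults (SD, n = 3), while the one 35 bases before it stood at 4.17% ± 3.62. Those 82 and 81 bases before the start are the 2 strands of 1 CG, so the 5 positions lie on 4 CG. At Ece1, the endothelin-converting enzyme, the controls were at 1.69%, 3.68% and 2.25% and the adults at 63.7%, 36.3% and 51.3%. The adults thus spread widely there but stayed far above the controls. At Mab21l2, a developmental gene of the Mab21 family, 2 measured CG lie upstream and 3 after the start, and the controls at 2.88%, 17.3% and 1.08% were set against adults at 73.2%, 60.3% and 60.4%. Alpk3, an alpha-kinase gene, went from 16.03% ± 6.13 to 57.9% ± 3.45, and Rps6ka1, a ribosomal S6 kinase, from 26.3% ± 8.15 to 63.4% ± 10.8. Over those of the same positions that had calls, with no minimum, the KO libraries stayed low at 4 of these promoters. Mab21l2 read 4.88%, 0% and 4.17%, Ece1 8.59%, 0% and 0%, Tacc2 4.04%, 2.56% and 0%, and Alpk3 8.86%, 0% and 8.89%. Some positions had under 10 calls in a KO library. At Mab21l2 the 3 after the start did in KO 2 and KO 3, and KO 3 had 24 calls in all. Rps6ka1 read 29.9%, 27.3% and 50% in KO, the last from 12 calls. In the P0 RNA, the edgeR quasi-likelihood test gave an adjusted p of 0.063 for Ece1, 0.60 for Tacc2, 0.68 for Alpk3 and 0.59 for Rps6ka1 between KO and control, and Mab21l2 had too few counts to be tested.

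**Figure D1:**
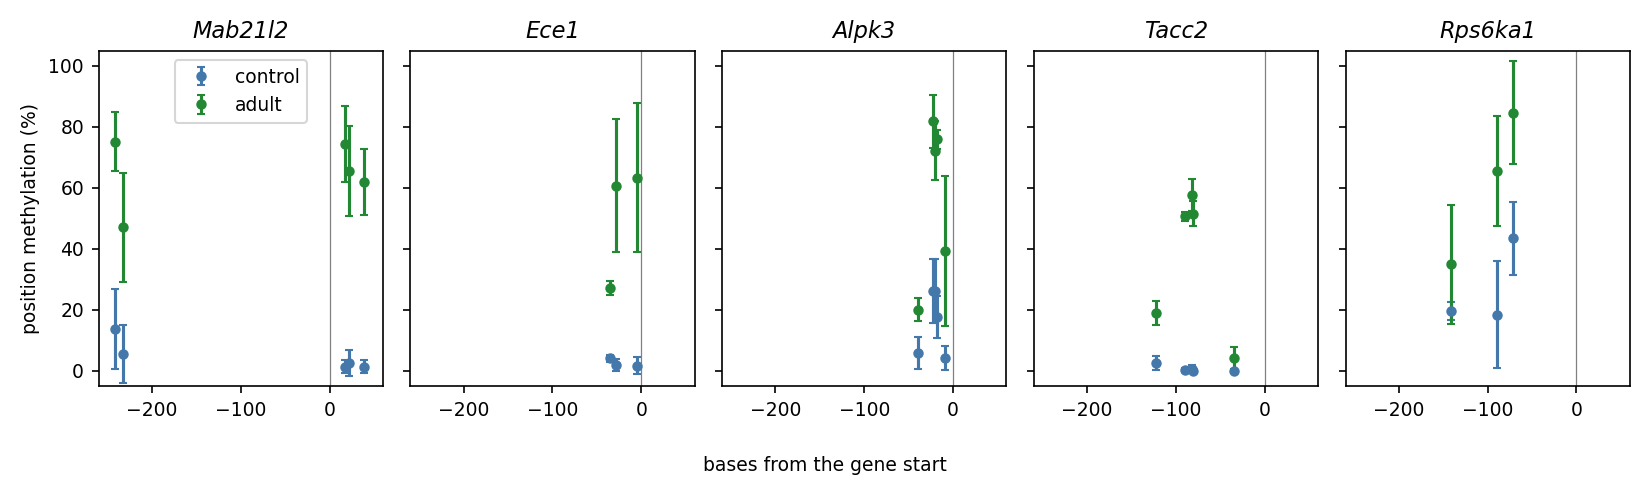
Methylation (%) of each measured position in the 5 promoters against its distance in bases from the gene start (grey line), as the mean of 3 controls (blue) and 3 adults (green) with SD bars. At Tacc2 the positions 90 to 81 bases before the start stand between 50.7% and 57.6% in adults, and the position 35 bases before it at 4.17%.

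Across all 2537 windows the methylation level rose from a median control mean of 30% to a median adult mean of 61.1%. The libraries of a group lay close together: the mean over the windows was 31.8%, 33.7% and 30.5% in the controls and 61.4%, 60.6% and 60.1% in the adults. The median SD within a window was 5.23 points among controls and 4.78 among adults. The rule favours windows with little spread within a group, so this closeness comes in part from the choice. All covered windows had a median control mean of 70.3% and a median adult mean of 69.4%. The gain had a median of 26.5 points, quartiles of 22.8 and 32.4 and a maximum of 64.4. It reached 30 points in 851 windows, 40 in 219 and 50 in 58. Each window rested on a median of 182 calls per control library and 194 per adult library, and on never fewer than 30. Just inside the limit lay windows at Carmn (20 points), Ptpn3 (20.02) and Fto (20.03), and just outside it windows at Aoc3, Osbpl10 and Rbm20 (each 19.99).

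Gains were most frequent at windows that were partly methylated at birth. Of windows at 20 to 40% in controls 17.4% gained, against 10.03% at 40 to 60%, 3.09% at 0 to 20% and 1.71% at 60 to 80%. No window above 80% could meet the rule. Of the 780 windows that began under 20%, 46 ended between 60 and 80% and none higher. Of all 2537, 437 ended at 80% or more. The typical gaining window was thus intermediate in methylation at both ages.

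**Figure D2:**
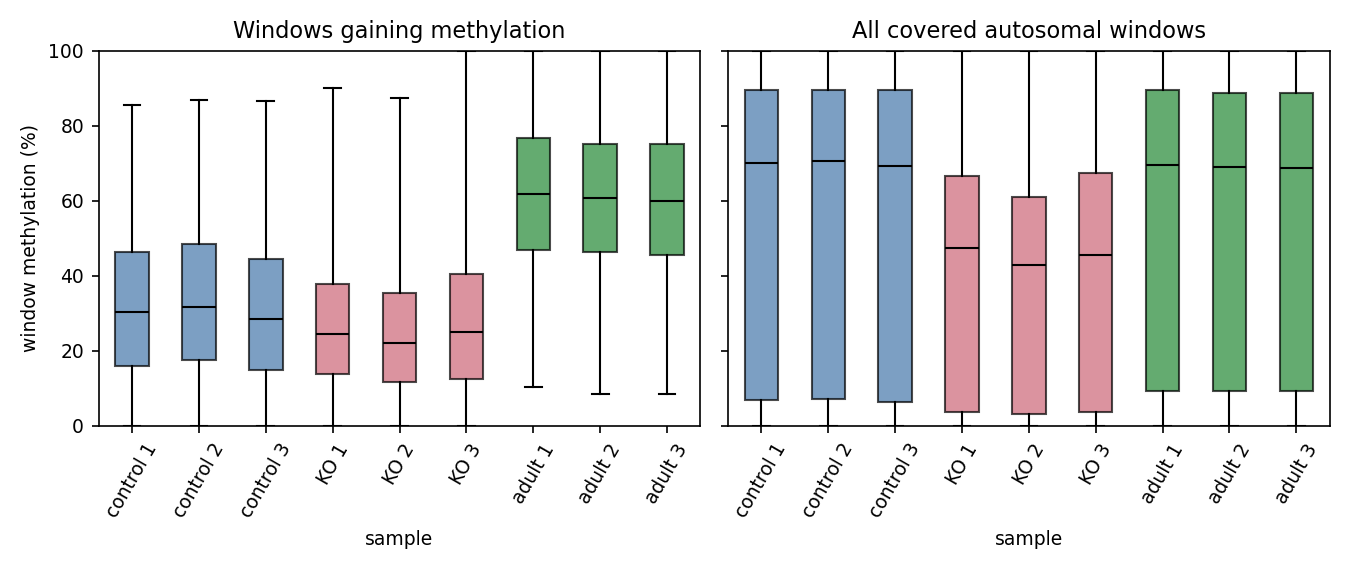
Window methylation (%) in each of the 9 RRBS libraries, over the gaining windows (left; 2537 for controls and adults, 1353 for KO) and over all covered windows (right); boxes are quartiles with the median, whiskers the lowest and highest window. Over gaining windows the control medians are 28.3 to 31.7%, the KO medians 22.2 to 25% and the adult medians 59.9 to 61.8%.

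The rise was shared by most positions of a window but was uneven. Of 13091 positions in the windows, 96.6% were higher in the adult mean and 68.6% were higher by at least 20 points. Every position was higher in 2170 windows (85.5%), and every position rose by at least 20 points in 528 (20.8%). The median range of gains within a window was 30.3 points. A full switch was rare: of 7145 positions with 10 calls in all 9 libraries, 14 were at 5% or less in every P0 library and at 80% or more in every adult.

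When each control or adult library was left out in turn, 2591 to 2913 windows were chosen from the other 5. The library left out then differed from the mean of the other group by a median of 23.1 (control 2) to 26.6 points (control 3) in the direction of the choice. It lay beyond every library of the other group in 94.0 to 96.1% of those windows, and the difference was at least 20 points in 61.7 to 74.1%. The other group took part in the choice, so these values are not independent of it.

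The 10 windows with the highest gains among those with at least 5 positions lay mostly inside protein-coding genes. At Ehbp1, which encodes a protein of endocytic transport, the window chr11:22007001-22008000 was at 13.7%, 15.2% and 14.6% in controls and 79.4%, 74.4% and 76.9% in adults. A window 2 kb away in the same gene rose from 30.9% ± 5.85 to 88.4% ± 2.11. The long RNA gene 9030404E10Rik held chr16:30037001-30038000, which went from 25.2% ± 2.98 to 86.1% ± 0.848. At Slc2a9, a urate transporter, controls were at 12.7%, 53.0% and 13.8% and adults at 95.5%, 74.7% and 88.8%, so control 2 stood well above the other controls. Smug1, a uracil-DNA glycosylase, showed the same library apart: 6.54%, 23.6% and 5.80% in controls against 66.0%, 68.2% and 65.0% in adults. The others were at Cyp26c1, Atg7 (the E1-like enzyme of autophagy, 21.6% to 80.1%), Hoxa3, Rai1 (a chromatin regulator, 9.10% to 64.6%) and Rps6ka4. Rps6ka4, which encodes the kinase MSK2, had 24 measured positions in its window and rose from 21.8% ± 4.33 to 76.3% ± 3.99.

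Cyp26c1, an enzyme that breaks down retinoic acid, had all 5 of its covered windows among the gaining windows. The one at chr19:37686001-37687000 was at 9.35%, 4.92% and 3.93% in controls and 65.6%, 67.9% and 63.9% in adults. At Aldh1a2, an enzyme that makes retinoic acid, 1 of 4 covered windows gained, and this one, chr9:71217001-71218000, was at 2.09%, 3.27% and 3.11% in controls and 48.4%, 53.1% and 47.7% in adults. The control and adult libraries did not come near each other in either window. The KO libraries at Aldh1a2 were at 7.44%, 3.07% and 7.76%, and the difference from controls was 3.27 points (adjusted p = 0.21, quasi-binomial model).

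Homeobox and other patterning transcription factors held 53 gaining windows among 733 covered windows in the gene or within 5 kb of its start (7.23%), against 2.97% over all protein-coding genes. They belonged to 31 of 126 such genes, 18 of them Hox genes; neighbouring Hox genes shared some windows. At Hoxa3 the window chr6:52170001-52171000 was at 14.8%, 9.30% and 10.7% in controls and 76.9%, 70.4% and 60.8% in adults. At Hoxd3 8 of 17 covered windows gained, led by chr2:74734001-74735000, from 18.3% ± 1.78 to 79.0% ± 5.06. In the antisense gene Hoxa11os, 3191 bases from Hoxa11, the window chr6:52249001-52250000 was at 4.92%, 3.25% and 3.04% in controls and 55.3%, 50.4% and 48.9% in adults. KO read 3.01%, 0.903% and 0.559% there, each below the lowest control, with an adjusted p of 0.16 for the difference. A window at Emx1 showed 1.48%, 1.16% and 0.551% in controls, 2.51%, 0% and 0.676% in KO, and 26.8%, 37.7% and 31.1% in adults. The Hoxa11os and Emx1 windows were thus under 5% in all 6 newborn libraries.

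Nephron progenitor genes had 11 gaining windows among 141 (7.80%), at 5 of 21 genes: Wt1, Pax2, Hoxa11, Hoxd11 and Bmp7. Of the 11, 7 are also counted in the homeobox list. Pax2, a transcription factor of the early kidney, held 3, and the one at chr19:44836001-44837000 rose from 4.50% ± 2.73 to 40.3% ± 5.76. Wt1, needed in progenitors and podocytes, rose from 29.9% ± 3.87 to 62.2% ± 10.4. Six2 itself held none. Genes of the stroma, the supporting cells between tubules, had 10 of 73 (13.7%), 5 of them at Meis1, and 6 of the 10 are in the homeobox list too. Imprinted genes had 16 of 205 (7.80%), 5 at Kcnq1, and the growth regulator Plagl1 rose from 14.9% ± 4.87 to 53.4% ± 6.32. Fetal growth genes had 5 of 107 (4.67%). Hmga2, a chromatin protein of fetal growth, held 3 of them and rose from 21.4% ± 5.54 to 64.4% ± 5.94 in the window with the highest gain.

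The lists of other cell types differed in their shares. Podocyte genes had 5 of 119 windows (4.20%), against 2.97% over all protein-coding genes, and 1 of the 5 is also in the progenitor list. They lay at 4 of 16 genes (25%), against 8.10% of all protein-coding genes. These shares of genes are not alike, since the 16 genes had 119 covered windows and all 15756 had 56367. Tubule genes had 4 of 131 (3.05%) at 2 of 33 genes, ureteric and collecting duct genes 2 of 108 (1.85%) and endothelial genes 1 of 78 (1.28%). The bicarbonate transporter Slc4a4 rose from 43.7% ± 9.58 to 71.3% ± 0.653, the Ret co-receptor Gfra1 from 26.4% ± 8.76 to 64.6% ± 6.24, and the endothelial receptor Eng from 23.9% ± 5.39 to 44.0% ± 4.88. Leukocyte genes had 0 of 20 covered windows. Cell cycle genes had 1 of 57 (Ccnb2, 47.4% to 71.0%) and germline genes 1 of 67 (Tdrd9, 61.0% to 82.7%). Genes of the methylation machinery had 2 of 80 (2.50%): Dnmt3a held 1 (2.82% ± 2.52 to 29.99% ± 7.88) and Tet1, which oxidises methylcytosine, 1 (28.3% ± 8.64 to 56.8% ± 9.13).

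**Figure D3:**
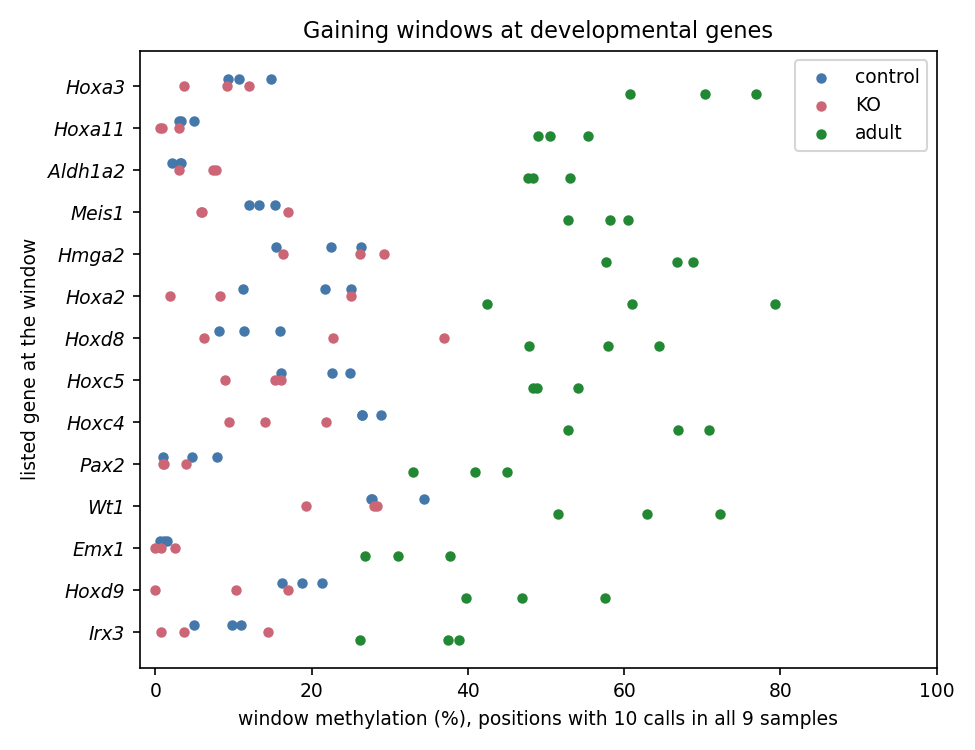
Methylation (%) in each library of 1 gaining window for each of 14 listed developmental genes, over positions with 10 calls in all 9 libraries. Each window lies in the gene or within 5 kb of its start. That shown for Hoxa2 is nearest to Hoxa3 (59 bases) and that for Hoxd8 to Hoxd9 (793 bases). A window near several genes is shown once, so Hoxd9 is shown by a window other than that of its highest gain. Blue points are controls, red KO and green adults. Adults stand to the right of every newborn library in all 14. Their place above the controls is fixed by the choice, in which KO played no part. High adult values were chosen, which favours their place above KO, seen in 94.1% of all gaining windows tested.

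Gaining windows formed 2375 runs when those up to 2 kb apart were joined, and 2234 of these held a single window. The longest runs held 4, at Fbxl8 and Hsf4 (chr8:105268001-105273000), Meis1 (chr11:19013001-19017000), Hoxc5 and Hoxc6 (chr15:103010001-103016000) and Cyp26c1 (chr19:37684001-37688000). A direct neighbour was covered for 723 of the 2537 windows, so for most the direct neighbours could not be judged. Of these 723, 201 (27.8%) had a neighbour that gained too, while 3.02% of all covered windows gained. These shares are not alike, since a window can have covered neighbours on both sides and the second share counts single windows. The 586 neighbours outside the set moved by a median of 2.58 points, and 67.6% of them were above 0, against 43.8% of all covered windows. Gse1, a gene of a histone deacetylase complex, held 23 of 79, the oxidoreductase gene Wwox 13 of 92 and the RNA-binding protein gene Msi2 7 of 20. In all, 1164 of 15221 covered protein-coding genes held a gaining window, 873 of them just 1. By chromosome the share ran from 2.28% on chromosome 7 to 3.88% on chromosome 19. Around Dnmt1 on chromosome 9, where the adults differ from the P0 mice in genotype, 7 of 517 windows within 10 Mb gained (1.35%). Over the whole chromosome 2.64% gained. By the mirrored rule, 10 of the 517 lost methylation.

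Few gaining windows lay at gene starts. A start lay within 1 kb of 10.2% of gaining windows and of 22.0% of all covered windows. Windows that lost methylation by the mirrored rule were close to the gaining ones, at 11.2%, so this trait is not particular to gain. Of windows that contain a start, 0.982% gained, against 4.16% of those 1 to 5 kb away. The contrast was wider among windows under 20% in controls, where 17.1% of gaining windows and 58.6% of all windows had a start within 1 kb. Protein-coding gene bounds took in 63.1% of gaining windows and 63.7% of all. Gaining windows also held fewer positions than all covered windows, with a median of 4 against 5. Losing windows had a median of 4 too. Starts on chromosome 18 were not used here, and exons, introns and CpG density of whole windows were not analysed here.

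**Figure D4:**
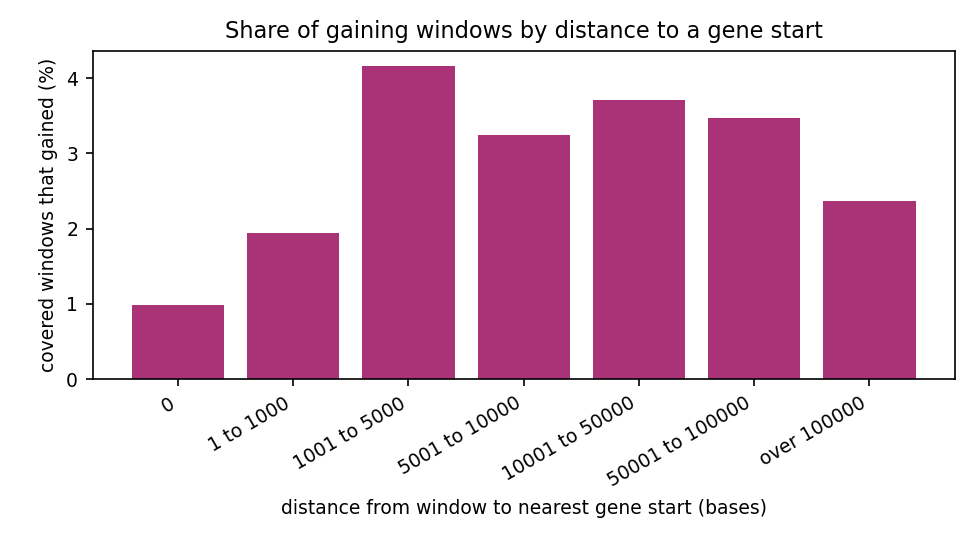
Share of covered windows that gained methylation (%) by distance in bases from the window to the nearest RefSeq gene start; 0 means that the window contains a start. The share is 0.982% at a start and 4.16% from 1 to 5 kb.

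The KO libraries were no part of the choice and show the state of the same windows at P0 after loss of Dnmt1. Dnmt1 RNA itself was at 180, 156 and 188 CPM in controls and 110, 111 and 93.8 in KO (log2 fold change -0.74 ± 0.12 SE, adjusted p = 0.00577, edgeR quasi-likelihood test), so transcript remained in KO. Of the gaining windows, 1353 had at least 3 positions with 10 calls in all 9 libraries. A window was called at an adjusted p under 0.05 (quasi-binomial model over all windows, Benjamini-Hochberg) and a difference of at least 10 points. The call was lower in KO for 253 (18.7%) and higher for 17 (1.26%), against 50.9% and 0.166% over all 48688 windows tested. The median difference was -3.56 points, against -14.4 over all windows. The controls are shared with the rule, which favours windows where they are low, so the members were also set beside windows of the same control class. The classes are wide. At 0 to 20% the median control level was 11.5% in gaining windows and 1.54% in all windows tested, and at 60 to 80% it was 65.4% and 72.0%. They also rest on the same control values, so the comparison does not undo the choice of low controls. The count of lower windows was 140 without control 2, and that of higher windows was 11 without control 1, 10 without control 3 and 8 without KO 3.

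The loss in KO followed the newborn level. Among windows under 20% in controls, 3 of 450 gaining windows were lower (0.667%, against 0.271% of all windows of that level) and 6 were higher (1.33% against 0.179%), with a median difference of -0.01 points. At 20 to 40% 67 of 466 were lower (14.4% against 20.4%), at 40 to 60% 128 of 338 (37.9% against 44.0%) and at 60 to 80% 53 of 96 (55.2% against 72.6%). Higher calls numbered 9 at 20 to 40% (1.93% against 1.33%) and 2 at 40 to 60% (0.592% against 0.395%). The median differences were -4.72, -11.2 and -14.7 points, against -6.41, -13.6 and -20.1 over all windows of those levels. Averaged over the windows, KO had lost 15.7% of the control level, against 25.6% over all windows. A test of the gaining windows against the others was not made. Every KO library lay below every adult in 1273 windows (94.1%, against 53.7% of all), which the choice of high adult values favours. Every KO library lay below every control in 319 (23.6% against 52.2%) and above every control in 48 (3.55% against 1.53%).

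**Figure D5:**
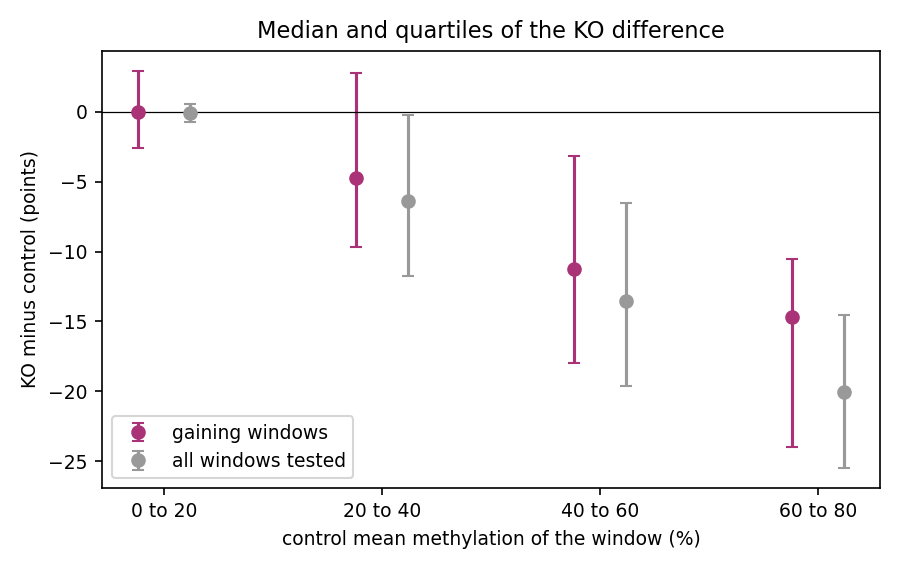
KO minus control methylation (percentage points) by the mean control level of the window (%), as medians with quartile bars, for gaining windows (purple) and all windows tested (grey). Both fall with the control level, from -0.01 and -0.06 points at 0 to 20% to -14.7 and -20.1 at 60 to 80%.

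The strongest loss was in Slit3, which encodes a guidance ligand: chr11:35475001-35476000 was at 59.5%, 66.9% and 55.8% in controls, 34.8%, 16.5% and 9.23% in KO and 79.1%, 88.6% and 84.2% in adults (KO minus control -40.6 points, adjusted p = 0.00144). A window between genes at chr3:101171001-101172000 had 59.6%, 57.7% and 53.4% in controls, 25.7%, 16.7% and 17.7% in KO and 84.3%, 83.3% and 83.1% in adults (adjusted p = 0.000172). The next were chr13:110431001-110432000, 30157 bases from Plk2 (-37.5 points), one in Enox1 (-35.7) and chr15:51502001-51503000 (-34.4). These 5 were picked as the lowest in KO, and every gaining window has adults above controls, so the opposite directions follow from the choice.

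At 17 windows the call was higher in KO than in controls, the side on which the choice had placed the adults. All values of this comparison are over positions measured in all 9 libraries. In the neuronal kinase gene Mast1, chr8:84912001-84913000 was at 9.22%, 12.3% and 11.9% in controls, 34.1%, 27.6% and 45.8% in KO and 28.3%, 51.7% and 40% in adults (24.7 points, adjusted p = 0.00293). A window 222796 bases from Irx5, chr8:92134001-92135000, read 21.2%, 18.3% and 13.3% in controls, 42.1%, 37.8% and 56.0% in KO and 65.6%, 45.4% and 39.0% in adults (27.7 points, adjusted p = 0.003). KO and adult libraries overlapped at both windows, and both calls held without any single library. The calls at Lifr, a cytokine receptor gene (28.8 points), the demethylase gene Fto (27.7) and Rps6ka4 (24.9) were less firm. That at Lifr was lost without any 1 of controls 1, 2 and 3, KO 2 or KO 3, where KO read 50.9%, 70.3% and 100%. That at Fto was lost without any 1 of the controls, KO 1 or KO 2, and that at Rps6ka4 without control 1, control 2, KO 2 or KO 3.

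Other windows were alike in KO and control. Beside Emx1, those closest to 0 difference were in the unconventional myosin gene Myo15b (6.89% ± 4.56 and 6.89% ± 2.04, 35.9% ± 6.64 in adults), in Tceanc2 (35.2% ± 3.37 and 35.2% ± 9.01), in Rai1 (3.81% ± 1.67 and 3.82% ± 0.774, 52.3% ± 6.39 in adults) and at chr1:151227001-151228000 (45.4% ± 2.72 and 45.4% ± 11.6).

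RNA at P0 was compared for genes that overlap a gaining window. Of 1542 such genes, 1263 were matched by symbol and 1130 had enough counts to be tested. By edgeR's quasi-likelihood test at an adjusted p under 0.05, 57 were higher in KO (5.04%) and 132 lower (11.7%), against 6.36% and 8.23% of all 18132 genes. Genes that overlap any covered window had 4.86% higher and 8.76% lower. The median log2 fold change was -0.07. Genes with a start within 1 kb of a gaining window had 6 higher and 17 lower of 132. Single libraries moved these counts: without control 3 they were 122 higher and 224 lower, without control 1 19 and 70, without control 2 32 and 129, and without KO 1, 2 or 3 17 and 57, 19 and 55, and 26 and 55. Cell type genes moved in the same samples: the summed level of 43 tubule genes was 4981 to 10993 CPM in controls and 1219 to 1441 in KO, with 37 lower, and that of 17 podocyte genes 1414 to 2018 and 935 to 1010. Their part in these counts was not tested.

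Among the 5 lower genes with the smallest adjusted p, Cldn10 is on the tubule list. Cldn10, a claudin of tubule junctions, was at 76.8, 79.1 and 94.9 CPM in controls and 10.9, 14.5 and 13.4 in KO (log2 fold change -2.69 ± 0.15 SE, adjusted p = 5.82e-05, edgeR). Over the 4 positions measured in all 9 libraries, its window read 1.33% ± 0.153 in controls, 1.11% ± 1.17 in KO and 26.5% ± 7.81 in adults, and its KO difference did not pass the test (adjusted p = 0.96, quasi-binomial model). Dmgdh, a mitochondrial enzyme of choline breakdown, fell by 3.62 on the log2 scale, Atp6v0a4, a proton pump subunit, by 2.19, Amn, the partner of cubilin in endocytosis, by 1.94, and Rhpn1, a rhophilin, by 1.71. Among higher genes, Chit1, a chitinase of macrophages, went from 0.342 ± 0.106 to 10.4 ± 3.09 CPM (log2 fold change 4.90 ± 0.36 SE, adjusted p = 0.00014, edgeR). The summed level of 18 leukocyte genes was 145 to 177 CPM in controls and 159 to 253 in KO, and its part in this was not tested. Ntn1, a guidance cue on the stroma list, rose by 1.57 on the log2 scale, Grik4, a glutamate receptor subunit, by 1.17, Sertad4 by 0.87 and Abca1, the cholesterol exporter, by 0.77. Of 18 stroma genes 5 were higher and 1 lower. Their summed level was 6118 to 7865 CPM in controls and 5983 to 7284 in KO, and that of the stroma marker Foxd1 alone 10.8 to 22.6 and 52.4 to 59.0; their part in the rise of Ntn1 and of Aldh1a2 was not tested. The 10 calls held in each of the 10 alternative fits.

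Developmental genes with gaining windows moved in both directions in the KO RNA. Emx1 fell from 21.6 ± 7.01 to 3.53 ± 0.346 CPM (log2 fold change -2.62, adjusted p = 0.000606, edgeR), and its window was at 1.06% in both groups. Plagl1 rose by 1.01 on the log2 scale (adjusted p = 0.00617, edgeR) and Aldh1a2 by 1.02 (adjusted p = 0.0126, lost without KO 3). Pax2 (197 ± 27.3 and 169 ± 8.48 CPM) and Hoxa11 (39.8 ± 8.29 and 42.1 ± 5.73) did not pass the test, with adjusted p of 0.33 and 0.82. Cyp26c1 was nearly silent, with 1 to 5 counts in the controls and 1 to 4 in KO. Dnmt3a was at 191 ± 22.7 and 199 ± 22.2 CPM (adjusted p = 0.84).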

How the data were processed

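RRBS was measured in 9 samples and RNA-seq in 6. The authors deposited, per the file columns, methylation percent with methylated and unmethylated read counts for each cytosine position, 1 file per sample. Per the submitters' processing notes, Trim Galore, Bismark, STAR 2.4.1d and HTSeq 0.6.1 were named with the build mm10; settings are not given in the sources used here. The deposited RNA files hold raw counts per gene. RRBS libraries held 18424875 to 88765177 calls (KO 3 and control 2) and RNA libraries 26773937 to 34102567 gene counts; rows that name no gene took 22.9 to 35.8% of the RNA counts and were left out.

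Methylation of a window is its methylated calls over all calls of positions with 10 or more calls in every library used. A position is a cytosine of either strand, so 2 positions can belong to 1 CG. PCR duplicates cannot be seen in RRBS, so calls are not independent molecules. KO and control were compared by a quasi-binomial model per window with moderated dispersion, written in Python 3.11.15 and tested on simulated data. RNA was tested with edgeR 4.0.16 (TMM, filterByExpr), with DESeq2 1.42.0 as an alternative. Genes were placed by RefSeq bounds on GRCm38.p6. Sex chromosomes were left out of the choice. No replicate pair was a duplicate: at most 2.01% of positions had equal counts.

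Named windows were the 10 highest gains with at least 5 positions, the 5 lowest, highest and closest to control in KO, the highest of each gene list, the longest runs and those at the limit. Named genes were the 5 smallest adjusted p in each direction and list genes. Further list windows and genes, and the promoters shown, were picked after their values were seen. The members and lists were chosen with earlier results of these data known. One listed gene is not reported here.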

Additional observations from a re-analysis of the deposited data

Results flagged for a closer look

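On chromosome X, which took no part in the choice, 17 of 1560 covered windows met the same rule, and 483 met the mirrored rule for loss. They were looked at because they lie outside the autosomal windows described above. Sex is not among the labels used here, and no comparison was made on this chromosome.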

How the results depend on the processing

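The number of gaining windows was 1321 with at least 20 calls, 1045 with at least 5 positions, 6309 at a limit of 10 points and 851 at 30 points. It was 2591 to 2913 when single libraries were left out, and it stayed within 1.5 times of 2537 under the other 4 alternatives. Windows lower and higher in KO numbered 393 and 29 with at least 5 calls, 382 and 72 with no overdispersion, 128 and 5 with unmoderated dispersion, and 119 and 4 at an adjusted p under 0.01. Leaving out single libraries gave 140 to 247 lower and 8 to 19 higher, and a median difference of -4.28 to -2.69 points. The share with a gene start was 25.8% within 5 kb. Genes at the windows that were lower in KO numbered 79 with library size alone. DESeq2 called 94 higher, and genes with a start within 1 kb gave 6 higher and 17 lower. Leaving out single libraries gave 17 to 122 higher and 55 to 224 lower.

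Replicate numbers were shared between control and KO, but same-numbered libraries did not deviate together (correlations -0.01, 0.002 and 0.001 in RRBS, and -0.28, -0.10 and -0.15 in RNA), so they were not treated as pairs. With the replicate block 200 windows were lower and 15 higher, and 28 genes were higher and 76 lower. The KO calls near Plk2 and in Enox1 were lost with unmoderated dispersion, and those at Lifr, Fto and Rps6ka4 were kept in 5, 6 and 6 of 13 alternatives. The cause of these shifts was not tested. Depth limits KO most, since KO 3 had a median of 4 calls per position, and 1353 of 2537 windows could be tested.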
